A study of Mus musculus with 4 samples.

Results

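Orphan nuclear receptors were followed in mouse gonocytes exposed to retinoic acid (RA). The set held 10 genes, Nr0b1, Nr2f1, Nr2f2, Nr2f6, Nr2c1, Nr2c2, Nr6a1, Nr5a1, Nr5a2 and Esrrb, out of 18193 genes with a probe set of their own on the array. Every probe set that the array annotation assigned to a single one of these genes was taken, which gave 35 probe sets of 45037. The genes were chosen with the difference in Nr0b1 already known, so their differences between RA and vehicle are given as a description, with no test.

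The RA group was 2 samples of gonocytes from mice 2 days after birth, kept for 8 h with 100 nM RA, and the vehicle group was 2 samples kept for the same time with ethanol. In both groups the cells had been selected with magnetic beads for the surface protein THY1, and the medium lacked serum, growth factors and feeder cells. Each sample was hybridised to 1 Affymetrix mouse expression array. The labels used here give no strain and do not say whether animals were pooled or whether the 2 samples of a group were separate cultures, so the spread between them may be technical. With 2 arrays in each group an exact two-sided permutation test of 1 gene cannot give a p below 0.33.

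Nuclear receptors are transcription factors that sit on DNA as monomers, homodimers or heterodimers. RA acts through the RA receptors, which pair with the retinoid X receptors on repeats of the sequence AGGTCA. Orphan receptors are those that were found before any ligand, and several of them bind the same repeats or the same partners, so that they can compete with RA receptors. In the gonad SF1 (Nr5a1) drives steroid hormone genes, DAX1 (Nr0b1) restrains SF1, COUP-TFII (Nr2f2) marks interstitial progenitors and GCNF (Nr6a1) is named for its expression in germ cells.

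The promoters of Nr0b1 and Nr5a2, the receptor genes with the largest differences in each direction, are shown first. A link between these sequences and the array values was not tested. RefSeq windows of 300 bases, from 250 before the transcription start to 50 from the start on, were at hand for 9 of the 10 genes, in 13 windows of build GRCm38.p6. Capitals mark AGGTCA, the core that nuclear receptors recognise (the half-site), read on either strand. The Nr0b1 window is chrX:86191525-86191824 on the plus strand and the Nr5a2 window shown is chr1:136960399-136960698 on the minus strand, both written 5′ to 3′.
Nr0b1: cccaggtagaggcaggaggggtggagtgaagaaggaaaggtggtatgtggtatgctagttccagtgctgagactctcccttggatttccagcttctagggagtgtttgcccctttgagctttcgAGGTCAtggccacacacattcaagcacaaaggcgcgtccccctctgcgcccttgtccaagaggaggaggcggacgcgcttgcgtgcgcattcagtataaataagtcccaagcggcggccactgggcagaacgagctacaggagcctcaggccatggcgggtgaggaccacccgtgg
Nr5a2: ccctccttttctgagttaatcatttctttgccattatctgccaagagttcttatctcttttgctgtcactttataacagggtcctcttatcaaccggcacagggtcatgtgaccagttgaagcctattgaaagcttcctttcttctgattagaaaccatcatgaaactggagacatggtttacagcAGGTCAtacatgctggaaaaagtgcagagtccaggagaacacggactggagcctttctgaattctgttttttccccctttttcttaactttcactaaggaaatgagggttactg
The core stood once in the Nr0b1 window, at −126 to −121 from the start, and once in this Nr5a2 window, at −64 to −59. One of the Nr6a1 windows, chr2:38784466-38784765 on the minus strand, held it at both −91 to −86 and −45 to −40, read on the opposite strand. These were 3 of the 13 windows, and 16.3% of 32851 windows of the same length in the table held the core. The other window of Nr5a2, chr1:136953581-136953880 on the minus strand, did not hold it. CAAGGTCA, which contains the core and is the form bound by SF1, LRH1 and ERR proteins, was in 0 of the 13 windows and in 1.56% of all. The direct repeats AGGTCAAGGTCA, AGGTCANAGGTCA, AGGTCANNAGGTCA and AGGTCANNNNNAGGTCA were in none of the 13 windows. In this order they were in 0.00609%, 0.0396%, 0.00913% and 0.00913% of all windows. The looser repeats of RGKTCA with a spacing of 2 or 5 bases, which need not contain the core, were in none of the 13 either. They were in 0.268% and 0.0974% of all windows. At such small shares, finding none in 13 windows says little about these genes. A match is a string of letters and not a measured binding site.

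On the 4 arrays, most markers of germ cells and of other testis cells gave signals that passed a filter. All 11 germ cell markers with a probe set of their own passed the signal filter described in the next paragraph. Ddx4, a germ cell RNA helicase, had signals of 1300 and 1121 with RA and of 1305 and 1289 with vehicle. Of the 11 markers 10 were lower and 1 higher with RA, with a median log2 change of −0.12. Both RA arrays were lower in 3 of them, next to 12.6% of all genes. In limma 2 had an unadjusted p under 0.05, next to 2.71% of all genes, but did not pass the adjusted threshold. One was Zbtb16, a transcription factor of undifferentiated spermatogonia, with 368 and 174 with RA against 701 and 699 with vehicle (log2 change −1.45 ± 0.33). The other was Ret, the receptor for the niche factor GDNF, with 254 and 277 with RA against 514 and 562 with vehicle (2.01-fold lower, with an SE of 0.19 on the log2 scale). The part of germ cell content in the receptor differences was not tested. Markers of stromal and peritubular cells passed in 12 of 12 genes, of Sertoli cells in 10 of 12 and of fetal Leydig cells in 5 of 5. Those of endothelium passed in 8 of 8 and of leukocytes in 7 of 8. Of all 18193 genes with a probe set of their own 13011 passed, so a pass alone says little about which cell types were present. The Sertoli hormone gene Amh stayed below the filter, at 9.01 and 7.11 with RA and at 1.66 and 11.9 with vehicle. Where a sample mixes cell types, a lower signal can come from fewer cells of a type or from less RNA per cell, which cannot be told apart here. The ratio of 3′ to 5′ signal of the Actb control transcript, a sign of RNA quality, was 2.08 and 2.32 on the RA arrays and 1.72 and 1.73 on the vehicle arrays, so the groups were apart in this measure as well. Its part in the differences described here was not tested.

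Values were compared as log2(signal + 5). Dim probe sets were set aside, those with an average below the 40th percentile of all averages, a signal of about 15.5. Of the 35 receptor probe sets 24 were kept and 11 were too dim, and each of the 10 genes kept at least 1 probe set. The 2 RA signals both exceeded the 2 vehicle signals in 4 of the 24, while over all 27022 probe sets kept this held for 12.7%. They were both smaller in 6 of the 24, against 15.2% of all. The groups overlapped in the other 14. The higher ones were 3 probe sets of Nr2c2 and 1 of Nr0b1, and the lower ones 4 of Nr5a2 and 2 of Nr2f2. Probe sets of a gene read the same RNA and are not independent, so these counts are not set against the shares as a result. Nr0b1 and the dimmest Nr5a2 probe set passed the filter only through the group where they were high. By the brightest probe set of each gene, both RA arrays were higher in 2 genes (Nr0b1 and Nr2c2), both were lower in 1 (Nr5a2), and the groups overlapped in 7. Among all 13011 genes kept, the shares were 14.1% and 12.6%. These counts depend on the scaling. Nr6a1 had both RA arrays higher as well with quantile scaling, and Nr2f1 did with equal array medians. The median log2 change of the 10 genes was 0.03, next to 0.01 for all genes. In limma no probe set on the array passed a Benjamini-Hochberg adjusted p of 0.05 (0% of 27022, smallest adjusted p = 0.147), and 743 (2.75%) had an unadjusted p under 0.05.

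**Figure D1:**
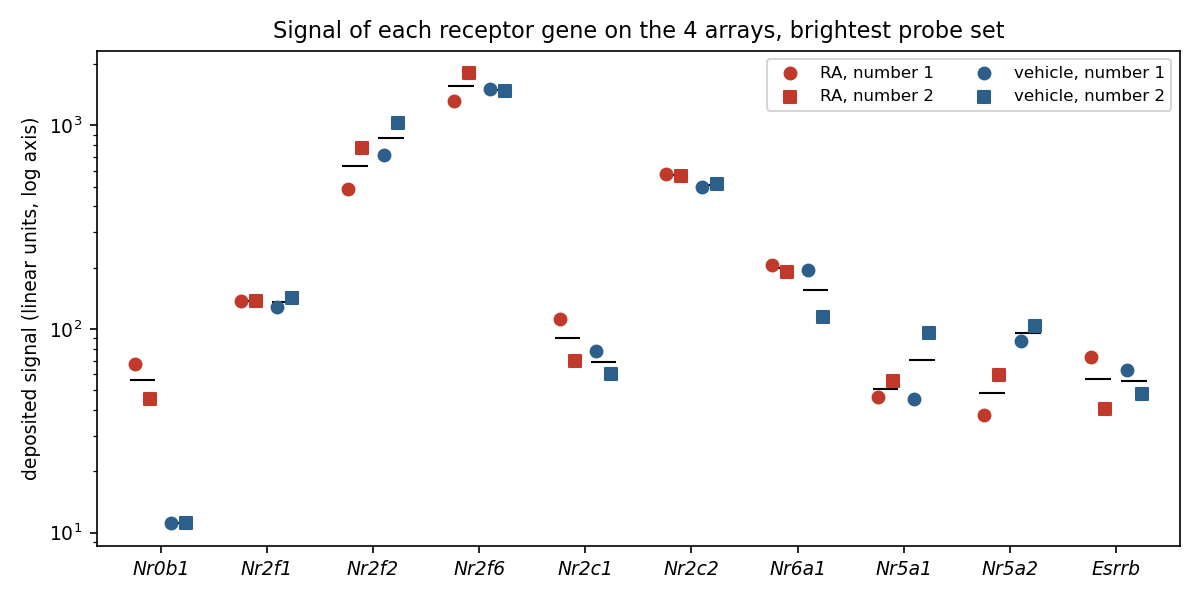
Deposited signal of the brightest probe set of each receptor gene (log axis, linear signal units) on the 2 RA arrays (red) and the 2 vehicle arrays (blue). Circles are samples numbered 1, squares samples numbered 2, and black bars are group means. Nr0b1 stands at 67.5 and 45.4 with RA against 11.2 and 11.1 with vehicle, and in Nr5a2 both RA points lie below both vehicle points. Heights of different genes come from different probes and are not comparable.

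Nr0b1 encodes DAX1, a receptor that lacks the usual DNA-binding domain and acts mostly by binding other receptors and holding them back. In mouse embryonic stem cells it is part of the pluripotency network. The array had a single probe set for it. Its signals were 67.5 and 45.4 on the RA arrays, against 11.2 and 11.1 on the vehicle arrays. Both RA arrays were high and the vehicle arrays were nearly equal, below the level of the filter, so the gene was kept through its RA values alone. RA over vehicle was 3.75-fold on the scale with 5 added, a log2 change of 1.91 ± 0.32 (SE, 2 arrays per group). A log2 change of at least 1 in this direction was found in 69 genes (0.53%), and of the 10 receptors in Nr0b1 alone, from which nothing is read because the gene was chosen for this difference. Because the vehicle signals are small, the size depends on the number added before taking logs: the log2 change was 1.28 with 20 added and 2.22 with 1 added. Between the RA arrays the sample numbered 2 was lower than the one numbered 1 by 0.52 on the log2 scale.

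DAX1 is made by Sertoli cells as well as by other gonadal cells, so Sertoli markers were read beside it. Over the 12 markers the summed signal was 5287 and 6760 with RA and 4980 and 6484 with vehicle, and the groups overlapped. Of the 10 markers kept, 5 were higher and 5 lower with RA, with a median log2 change of 0.03. The groups were apart, with RA higher, in 2 of the 10, next to 14.1% of all genes. Wt1, a transcription factor of the early gonad and of Sertoli cells, had 353 and 308 with RA against 238 and 207 with vehicle (log2 change 0.56 ± 0.20). Sox9, the factor that sets Sertoli fate, had 620 and 534 with RA against 446 and 424 with vehicle (log2 change 0.40 ± 0.19). No marker stood at 0, while Amh and Fshr were below the filter. The part of these cells in the Nr0b1 difference was not tested.

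By distance over the 4 arrays, after each gene was centred on its own mean, the genes most like Nr0b1 among the 13011 were Mbd1, Ccdc88b, Tmem119, Myoz2 and Scin. The distances ran from 0.47 for Mbd1 to 0.69 for Scin, in log2 units. Mbd1 encodes a protein that binds methylated CpG sites, and its signals were 814 and 897 with RA against 214 and 220 with vehicle. Ccdc88b, a coiled-coil protein gene, had 57.3 and 73.2 with RA against 13.0 and 15.3 with vehicle, the vehicle values being below the level of the filter. Tmem119, a transmembrane protein gene, had 301 and 384 with RA against 80.3 and 98.2 with vehicle. In these 3 the RA array numbered 2 was the higher one, while in Nr0b1 it was the lower one. Scin, which encodes an actin-severing protein, had 70.4 and 53.1 with RA against 24.3 and 22.5 with vehicle. Myoz2, a sarcomere protein gene, had 69.6 and 64.4 with RA against 21.6 and 26.7 with vehicle. Nearness over 4 arrays rests mainly on the size of the difference between the groups, which was also what drew attention to Nr0b1.

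**Figure D2:**
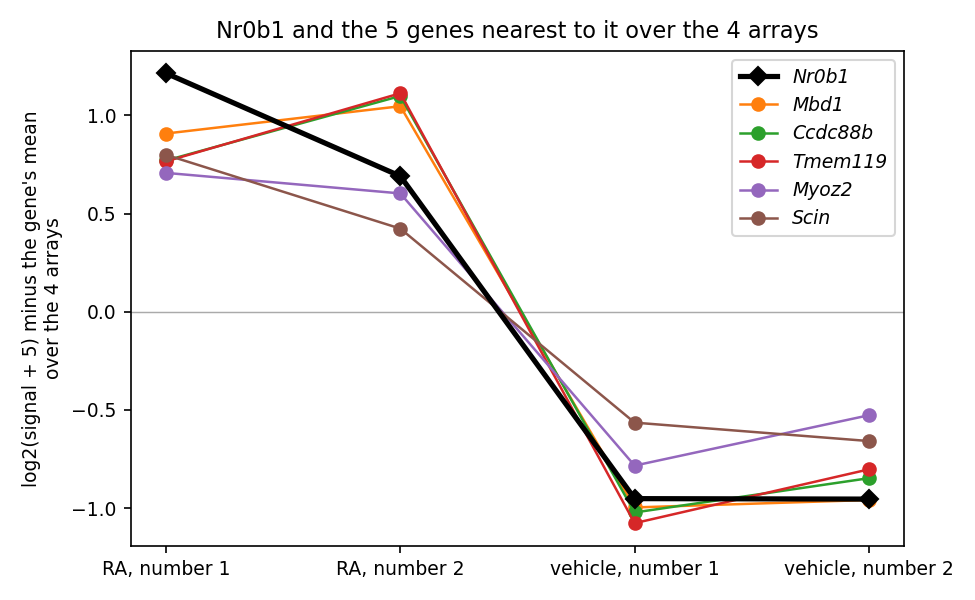
Log2(signal + 5) of Nr0b1 (black) and of the 5 genes nearest to it, each minus its own mean over the 4 arrays, by array. Lines only join the values of a gene. All 6 genes lie above 0 on both RA arrays and below 0 on both vehicle arrays.

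The NR5 receptors bind an extended form of the core as monomers and were read next, since DAX1 acts on them. Nr5a2 encodes LRH1, which in mouse embryonic stem cells helps to maintain Pou5f1 and elsewhere controls bile acid and steroid genes. Its brightest probe set had signals of 37.9 and 59.3 with RA, against 87.7 and 103 with vehicle. Both RA arrays were low, and the level was 1.91-fold lower, a log2 change of −0.93 ± 0.30 (SE, 2 arrays per group). A second probe set, drawn from the RefSeq transcript, had 39.95 and 49.8 with RA against 84.8 and 101 with vehicle (log2 change −0.98 ± 0.28). The third had 18.8 and 18.2 with RA against 37.3 and 34.8 with vehicle (log2 change −0.80 ± 0.29). The fourth had 14.6 and 13.7 with RA against 25.2 and 18.7 with vehicle (log2 change −0.48 ± 0.30). Its RA signals were below the level of the filter, so it was kept through its vehicle values alone. In each of the 4 the RA signals were both below the lower vehicle signal, as in 15.2% of all probe sets kept. The 4 were apart in this way also after quantile scaling and with equal array medians. These probe sets read the same 4 RNA samples and so are not independent of each other. Nr5a2 had rank 66 from the bottom of 13011 genes, just short of the 50 genes (0.384%) that were lower by a log2 change of at least 1. Among 13 alternative settings its log2 change was lowest, at −1.22, with RA array 2 dropped. It was highest, at −0.64, with RA array 1 dropped. A negative sign was fixed in advance under the filter, trend and block settings, which leave a log2 change as it is. Since the groups were apart, dropping any single array could not turn it either. No stability is therefore read from the sign.

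Nr5a1 encodes SF1, the activator of steroid synthesis genes in Leydig cells and of Amh in Sertoli cells. Its brighter probe set had 46.3 and 55.6 with RA, against 45.5 and 95.3 with vehicle. The vehicle sample numbered 2 was high and the other 3 arrays were alike, so the groups overlapped (log2 change −0.35 ± 0.37). Without that vehicle array the log2 change was 0.14, and without the other vehicle array it was −0.85. The second probe set was below the filter, at 9.24 and 9.49 with RA and at 7.85 and 15.5 with vehicle, with the same array highest. The 5 fetal Leydig cell markers with a probe set summed to 1614 and 2053 with RA and to 1448 and 2596 with vehicle, so their sum too was highest on vehicle array 2. Hsd3b1, a steroid dehydrogenase, had 348 and 342 with RA and 310 and 602 with vehicle. Star, Cyp11a1 and Cyp17a1 were also highest on vehicle array 2, and Cyp11a1, at 1308 there, was the largest part of the sum. The remaining marker, Hsd17b3, was highest on RA array 1, with 105 and 75.0 with RA and 74.3 and 101 with vehicle. None of these markers was at 0, and their part in the Nr5a1 values was not tested.

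**Figure D3:**
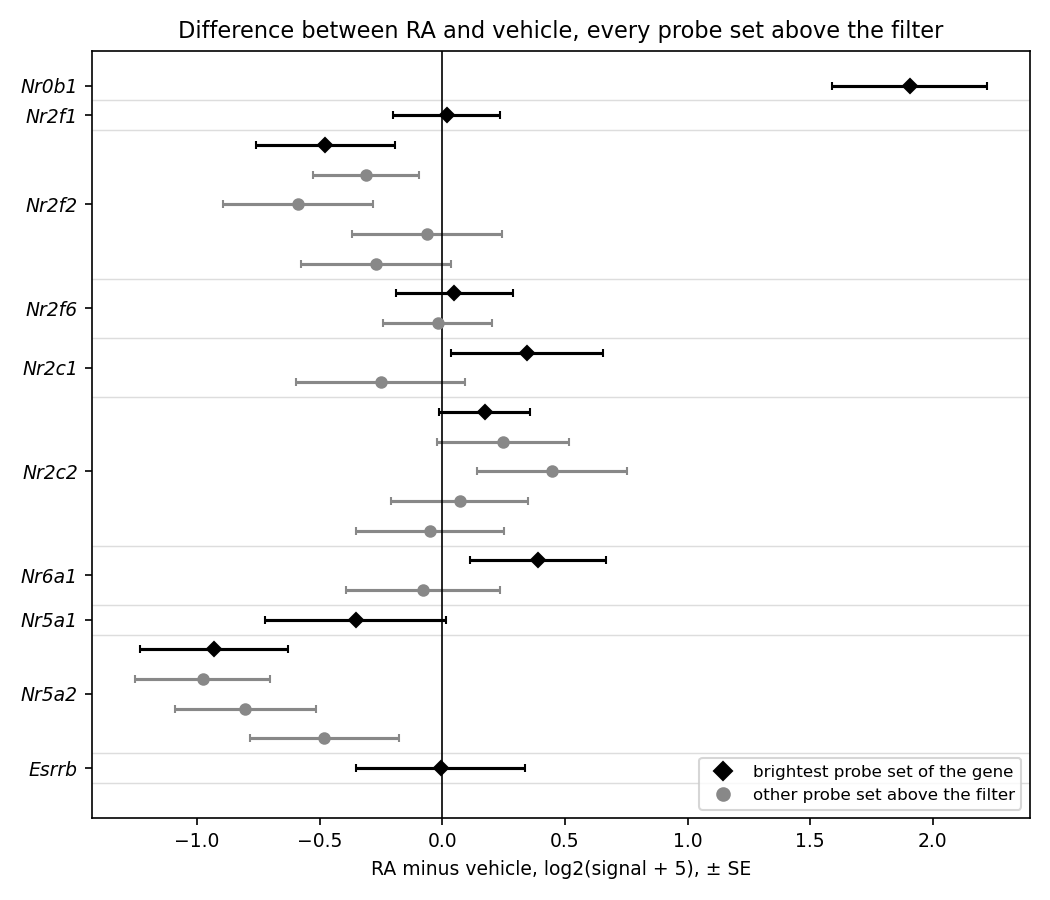
RA minus vehicle in log2(signal + 5), with its standard error (bars, n = 2 per group), for the 24 receptor probe sets above the filter, grouped by gene. Black diamonds are the brightest probe set of a gene. The 4 probe sets of Nr5a2 run from −0.98 to −0.48, the 5 of Nr2f2 are all below 0 (the one at −0.06 is at 0.01 under quantile scaling or equal array medians), and Nr0b1 stands apart at 1.91.

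The COUP transcription factors are repressors that can take the same DNA repeats as RA receptors and can draw away the retinoid X receptors. Nr2f2 encodes COUP-TFII, which in the testis is a marker of interstitial and fetal Leydig progenitor cells. Its brightest probe set had 486 and 775 with RA, against 716 and 1022 with vehicle. The groups overlapped, and within each group the sample numbered 2 was higher (log2 change −0.48 ± 0.28). A second probe set had 142 and 161 with RA against 175 and 204 with vehicle, with both RA arrays lower (log2 change −0.31 ± 0.22). Another had 64.2 and 95.5 with RA against 98.6 and 147 with vehicle, again with both RA arrays lower (log2 change −0.59 ± 0.31). With quantile scaling the groups overlapped in that probe set. The other 2 probe sets kept, which stand for other transcript sequences, overlapped at −0.06 ± 0.31 and −0.27 ± 0.31. All 5 differences were negative, although the smallest turned to 0.01 with quantile scaling or equal array medians, and that of the brightest probe set lay between −0.81 and −0.14 over the alternatives. A sixth probe set was below the filter, at 10.3 and 15.0 with RA and 10.2 and 9.96 with vehicle.

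Stromal and peritubular markers summed to 12572 and 16523 with RA and to 12393 and 15476 with vehicle, so the samples numbered 2 were higher there as well and the groups overlapped. Of the 12 markers 7 were higher and 5 lower with RA, with a median log2 change of 0.04. Tcf21, a transcription factor of interstitial progenitors, had 333 and 398 with RA against 410 and 623 with vehicle (log2 change −0.47 ± 0.25), both RA arrays being lower. Pdgfra, a growth factor receptor of the interstitium, had 1318 and 1371 with RA against 927 and 1314 with vehicle (log2 change 0.28 ± 0.24), both RA arrays being higher. Nr2f2 is also made by venous endothelium, and the 8 endothelial markers summed to 503 and 489 with RA and to 460 and 367 with vehicle. Both RA sums were higher, and none of the 8 markers was at 0. Of the 8, 7 were higher with RA (median log2 change 0.27, next to 0.01 for all genes). Both RA arrays were higher in 3 of the 8, next to 14.1% of all genes. The part of stromal and endothelial cells in the Nr2f2 values was not tested.

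**Figure D4:**
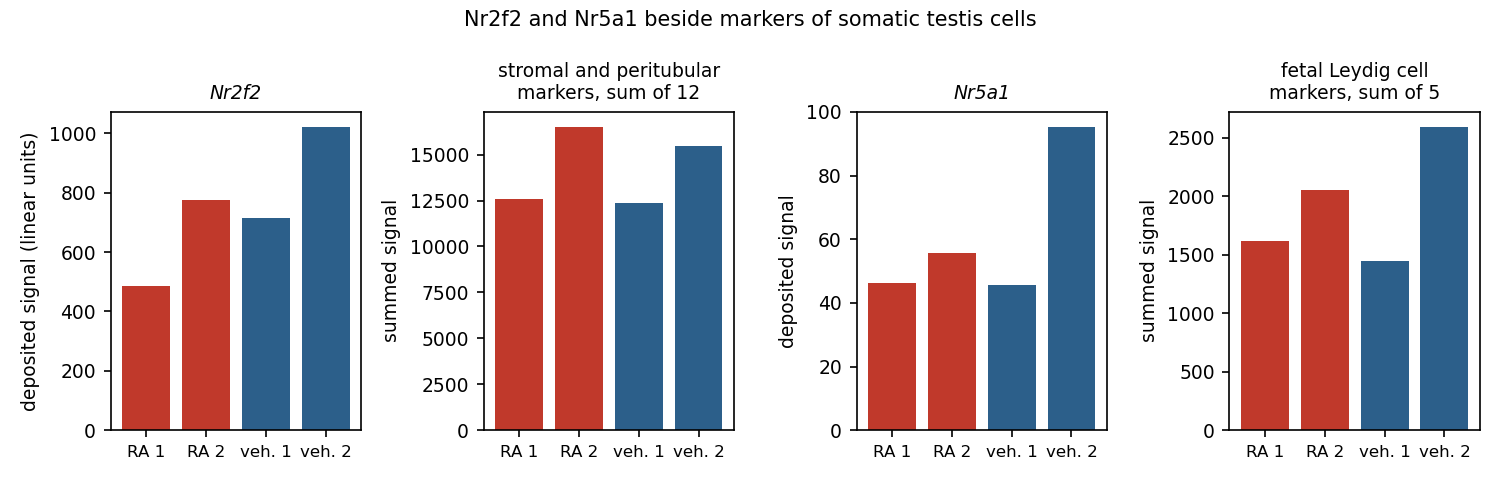
Deposited signal on each array (RA in red, vehicle in blue, bars from 0) for Nr2f2, for the sum of 12 stromal and peritubular markers, for Nr5a1 and for the sum of 5 fetal Leydig cell markers. Nr5a1 and the Leydig sum are both highest on vehicle array 2, at 95.3 and 2596.

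Nr2f1 encodes COUP-TFI, a close relative with roles in neural and sensory development. Its probe set had 137 and 137 with RA, against 129 and 142 with vehicle. The RA values fell between the vehicle values, and the log2 change was 0.02 ± 0.22. Nr2f6 encodes EAR2, a further COUP-TF relative that represses transcription. Its brighter probe set had 1316 and 1804 with RA, against 1507 and 1470 with vehicle, so the vehicle arrays lay between the RA arrays (log2 change 0.05 ± 0.24, or 0.28 if RA replicate 1 and −0.18 if RA replicate 2 was dropped). Its other probe set had 132 and 141 with RA and 149 and 128 with vehicle (log2 change −0.02 ± 0.22). With 2 arrays per group, changes of the size of these standard errors cannot be seen in either gene.

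TR2 (Nr2c1) and TR4 (Nr2c2), the testicular receptors, bind direct repeats, in erythroid cells as a heterodimer that silences embryonic globin genes. Nr2c2 had 580 and 566 with RA on its brightest probe set, against 500 and 515 with vehicle. Both RA arrays were higher, yet by little (1.13-fold, log2 change 0.17 ± 0.19). Of its 5 probe sets above the filter 4 had a positive difference, the largest being 73.1 and 68.6 with RA against 40.1 and 63.5 with vehicle (log2 change 0.45 ± 0.31), and 1 was at −0.05 ± 0.30, which became 0.03 with quantile scaling or equal array medians. The groups were apart, with RA higher, in 3 of the 5, next to 12.7% of all probe sets kept. These probe sets read the same RNA and are not independent. One of the 3 was apart by very little, at 40.9 and 44.5 with RA against 40.1 and 40.5 with vehicle (log2 change 0.07 ± 0.28). Nr2c1 had 112 and 69.5 with RA, against 77.7 and 60.01 with vehicle, and the groups overlapped (log2 change 0.35 ± 0.31). That change was 0.02 if RA replicate 1 was dropped and 0.67 if RA replicate 2 was dropped. Its other probe set above the filter went the other way, at 21.3 and 32.2 with RA and 25.5 and 40.3 with vehicle (log2 change −0.25 ± 0.34). The samples numbered 2 were the lower ones on the first of these probe sets and the higher ones on the second, so the probe sets of Nr2c1 did not track each other. Its other 3 probe sets were below the filter.

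Nr6a1 encodes GCNF, a repressor that in mouse embryos shuts down Pou5f1 as cells leave pluripotency. Its brightest probe set had 207 and 191 with RA, against 196 and 115 with vehicle. Vehicle array 2 was low and the other 3 were alike, so the groups overlapped (log2 change 0.39 ± 0.28). That change was 0.76 if vehicle replicate 1 was dropped and 0.02 if vehicle replicate 2 was dropped. The second probe set had 71.5 and 46.8 with RA and 70.6 and 53.4 with vehicle (log2 change −0.08 ± 0.31). The remaining 3 probe sets were below the filter, and with the mean of all 5 the log2 change was 0.005. In the RefSeq gene table of GRCm38.p6 Nr6a1 and Nr5a1 are neighbours on chromosome 2. On vehicle array 2 Nr5a1 was high, and Nr6a1 was low on its brightest probe set. On the second Nr6a1 probe set RA array 2 was the lowest instead. A link between Nr6a1 and Nr5a1 was not tested.

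Esrrb encodes an oestrogen-related receptor that binds the extended core and, in mouse embryonic stem cells, sustains self-renewal together with Nr0b1. Its brightest probe set had 72.7 and 40.7 with RA, against 62.8 and 47.8 with vehicle. The samples numbered 1 were higher in both groups, and RA and vehicle overlapped (log2 change −0.01 ± 0.34). The log2 change ranged from −0.39 without RA replicate 1 to 0.38 without RA replicate 2, so these arrays give no direction for it. The other 2 probe sets were below the filter, and the one designed on the RefSeq transcript was near the floor, at 0.323 and 1.70 with RA and 0.67 and 0.511 with vehicle.

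Genes related to these receptors were read from lists chosen with earlier results of these arrays known. The remaining orphan receptors numbered 15, of which 12 were above the filter, 9 with a positive and 3 with a negative difference (median log2 change 0.14, next to 0.01 for all genes). None passed the adjusted threshold in limma, and 1 had an unadjusted p under 0.05, while 2.71% of all genes did. Hnf4a, a receptor of liver and gut epithelia, had 35.1 and 59.8 with RA against 22.9 and 24.3 with vehicle (log2 change 0.83 ± 0.33). Nr4a3, an immediate early receptor, had 647 and 275 with RA against 300 and 247 with vehicle, overlapping (log2 change 0.62 ± 0.37). Dropping RA replicate 1 turned the list median to −0.10, and dropping RA replicate 2 gave 0.45. It was 0.28 on dropping vehicle replicate 1 and 0.09 on dropping vehicle replicate 2. Nr0b2, the closest relative of DAX1, had 29.3 and 32.01 with RA against 18.9 and 22.9 with vehicle, with both RA arrays higher (log2 change 0.47 ± 0.29).

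Of the 6 RA and retinoid X receptor genes 4 were above the filter, 1 positive and 3 negative. In limma 0 passed the adjusted threshold and 1 had an unadjusted p under 0.05, next to 2.71% of all genes. Rarb, itself a direct RA target, had 95.4 and 90.5 with RA against 14.9 and 6.56 with vehicle (log2 change 2.69 ± 0.35). Both vehicle signals were below the level of the filter, as for Nr0b1, so the gene was kept through its RA values alone. Rxra, a shared dimer partner of RA receptors and COUP-TFs, had 156 and 189 with RA against 233 and 192 with vehicle (log2 change −0.29 ± 0.22). Cofactors that these receptors bind had 9 genes above the filter, 7 positive and 2 negative (median 0.15, or 0.02 without RA replicate 2). Again 0 passed the adjusted threshold in limma and 1 had an unadjusted p under 0.05, next to 2.71% of all genes. Nrip1, a corepressor of ligand-bound receptors, had 791 and 944 with RA against 644 and 582 with vehicle (log2 change 0.49 ± 0.20). Bcl11a, a COUP-TF-interacting repressor, had 25.2 and 48.0 with RA against 43.0 and 51.4 with vehicle (log2 change −0.38 ± 0.35).

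The steroid synthesis genes and gonadal targets that SF1 activates and DAX1 restrains had 9 genes above the filter, 4 positive and 5 negative (median −0.05). That median took either sign as arrays were left out, with 0.08 (no RA replicate 1), −0.27 (no RA replicate 2), −0.33 (no vehicle replicate 1) and 0.27 (no vehicle replicate 2). It was also positive once arrays had equal medians (0.03) and in the absence of a filter or under the stricter one (0.01 in both). None of the 9 had an unadjusted p under 0.05 in limma, next to 2.71% of all genes, so little can be read from it. With quantile scaling, equal array medians or the replicate block it was 1 gene. Star, which carries cholesterol into mitochondria, had 467 and 443 with RA against 335 and 521 with vehicle (log2 change 0.12 ± 0.24). Cyp11a1, which starts steroid synthesis, had 660 and 1156 with RA against 700 and 1308 with vehicle (log2 change −0.13 ± 0.36). Fdx1, the electron carrier of that enzyme, had 897 and 1088 with RA against 649 and 798 with vehicle, with both RA arrays higher (log2 change 0.45 ± 0.22). Hsd3b1, given above, stood at −0.32 ± 0.30.

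Pluripotency factors that work with DAX1 and ESRRB had 14 genes above the filter, 5 positive and 9 negative (median −0.08). This median turned to 0.23 when RA replicate 2 and to 0.20 when vehicle replicate 1 was dropped, and it was −0.39 on dropping RA replicate 1 and −0.41 on dropping vehicle replicate 2. Averaging the probe sets of each gene gave 0.004. None passed the adjusted threshold in limma, and 1 had an unadjusted p under 0.05, next to 2.71% of all genes. That gene was Tcl1, a coactivator of AKT kinase, which had 91.0 and 108 with RA against 226 and 230 with vehicle (log2 change −1.16 ± 0.22). Nanog, a core pluripotency factor, had 19.4 and 16.6 with RA against 31.3 and 24.2 with vehicle (log2 change −0.50 ± 0.30). Pou5f1, which LRH1 maintains and GCNF represses in mouse stem cells, had 171 and 159 with RA against 172 and 125 with vehicle (log2 change 0.16 ± 0.24). Of 7 genes that GCNF is known to repress only 3 were above the filter, Pou5f1, Nanog and the protamine gene Prm1, the last with 17.3 and 32.7 with RA against 34.9 and 47.3 with vehicle (log2 change −0.65 ± 0.36). None of the 3 had an unadjusted p under 0.05 in limma, next to 2.71% of all genes, and 1 did with the replicate block.

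**Figure D5:**
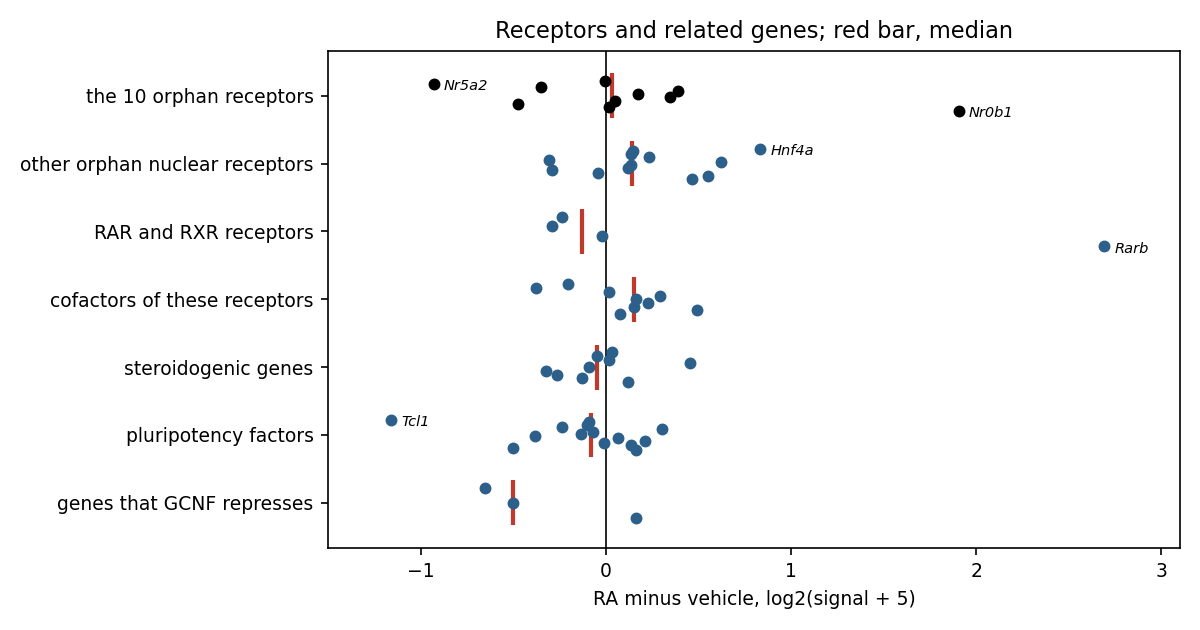
RA minus vehicle in log2(signal + 5) for the 10 orphan receptors (black) and for the related gene lists (blue), each point the brightest probe set of a gene above the filter. Red bars are list medians. Apart from Nr0b1 at 1.91, Rarb at 2.69 and Tcl1 at −1.16, all points lie within a log2 change of 1.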

How the data were processed

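Signals were measured on Affymetrix whole-genome mouse expression arrays, 1 per sample, after 75 ng of total RNA was amplified with the NuGEN Ovation system, per the labels' protocols. Images were quantified with GCOS 1.2, per the labels. The authors deposited linear intensities, 1 for each probe set of an array. The sources used here do not give how probes were summarised or arrays scaled. Since the trimmed mean (2% off each end) was 125 on each array, no further scaling was applied. The number of arrays limits the precision.

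The 64 control probe sets were left out. Gene names came from the platform annotation, updated by Entrez ID (34741 matched). A single gene was assigned to 34945 probe sets, more than 1 to 932, and no gene to 9160. The pseudocount of 5 was the rounded 20th percentile of the intensities. RA and vehicle were compared on log2(intensity + 5) in limma 3.58.1 (R 4.3.3, lmFit, eBayes with trend, two-sided, Benjamini-Hochberg). Alternatives covered quantile scaling, equal array medians, pseudocounts of 1 and 20, no filter or one at the 60th percentile, eBayes without trend, a block for the replicate number, each array left out, and averaging a gene's probe sets.

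The members, lists and markers were chosen with earlier results of these data known. Named genes were the 10 receptors, the 2 of each list with the smallest p, the 5 nearest to Nr0b1, and cell type markers. Among the markers, Zbtb16 and Ret were those of their list with an unadjusted p under 0.05 in limma. Wt1, Sox9, Tcf21 and Pdgfra were those of their lists with the groups apart. The values of these markers between RA and vehicle are therefore not those of a neutral choice. Nr0b2, Star, Cyp11a1 and Pou5f1, and Nr1d1, Hnf4g, Rxrg, Zfp42, Tfcp2l1 and Sall4 in the closing part, were added as examples after their values were seen. Cyp17a1 and Hsd17b3 were added in the same way. Promoter sequences came from RefSeq, build GRCm38.p6. Plots used matplotlib 3.10.9 (Python 3.11.15).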

Additional observations from a re-analysis of the deposited data

How the results depend on the processing

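The count of 0 probe sets past the adjusted threshold was also found with quantile scaling, equal array medians, either pseudocount, either filter and no intensity trend. With the replicate block it was 543 (221 higher and 322 lower). The block leaves less of these few arrays for the spread, so its variances rest more on a value shared across probe sets. That count is therefore not read as a gain in calls. The labels give no basis for pairing equal numbers, although the number 2 minus number 1 differences of the RA and vehicle arrays correlated at r = 0.526 over 27022 probe sets. Leaving out 1 array, which assumes that the lone sample varies like the other group, gave 0 to 152 probe sets: 90 when RA replicate 1 and 152 when RA replicate 2 was left out, and 1 when vehicle replicate 1 and 0 when vehicle replicate 2 was left out. For Nr0b1 the log2 change was 2.22 with pseudocount 1, 1.28 with pseudocount 20 and 1.64 to 2.17 with 1 array left out, and it was not above the filter at the 60th percentile. The causes were not tested. Of 115 values for the other 9 receptors 111 moved by less than the spread between replicates. The sign turned in 9, in Esrrb 5 times, Nr2f6 2 times, and Nr2f1 and Nr5a1 once each. The filter, trend and block settings cannot change a log2 change, and leaving out an array cannot move it by more than this spread. Most of the 111 were therefore fixed in advance, and no stability is read from them. Calls within the related lists appeared in 7 of 78 alternatives: Rarb with the replicate block and without either RA array, Tcl1 and Nr4a3 with the block and without RA replicate 2, and Nr1d1 without RA replicate 2. Of 78 alternative list medians 15 turned sign. Dim signal left 11 of the 35 receptor probe sets without a usable difference.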

Other observations

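The samples numbered 1 and 2 differed in the same direction under RA and under vehicle in 8 of the 10 receptors by their brightest probe sets, 4 higher and 4 lower on the arrays numbered 2. Over all 13011 genes kept, 27.8% were higher on both arrays numbered 2 and 38.8% lower. Of the 14 pluripotency factors 10 were lower on both arrays numbered 2, as Esrrb was. Zfp42, a marker of naive pluripotent cells, had 128 and 45.3 with RA (numbers 1 and 2) and 103 and 63.0 with vehicle. Tfcp2l1, a transcription factor of the same state, had 195 and 97.2 with RA and 218 and 151 with vehicle. Sall4, a zinc finger factor of germ and stem cells, went the other way, with 2311 and 3776 with RA and 2268 and 2530 with vehicle. All 7 leukocyte markers above the filter were higher on both arrays numbered 2, as were 8 of 12 stromal and peritubular markers. The part of sample makeup in these differences was not tested.

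Among receptors too dim for the comparison, Hnf4g, a relative of Hnf4a, had 0.68 and 7.43 with RA and 8.69 and 19.6 with vehicle. Rxrg, a retinoid X receptor of muscle and brain, had 6.91 and 0.385 with RA and 0.274 and 4.92 with vehicle, which gives no order of the groups.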
